A study of Mus musculus with 18 samples.

Results

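The replication-dependent histone genes are the clustered genes that supply the bulk histones of newly made chromatin. They were taken as the protein-coding genes of the count table whose symbols start with *Hist1h*, *Hist2h*, *Hist3h* or *Hist4h*, which gave 67 of 51912 annotated genes. Another 3 symbols of this form belong to pseudogenes and were left out. The cells were primary cortical astrocyte cultures from postnatal day 0 mice of both sexes hemizygous for the Aldh1l1-EGFP/Rpl10a transgene (line JD130Htz on a B6;FVB stock), which puts the GFP-tagged ribosomal protein Rpl10a in cells that use regulatory sequence of the astrocyte gene *Aldh1l1*. Cultures reached confluence in 14 days, were replated for 6 days, were kept without serum for 24 h, and were then held for 24 h in serum-free medium with 50 mM ethanol or without it. Ribosome-bound RNA was pulled down with GFP antibodies by translating ribosome affinity purification (TRAP, called IP here) from 6 control and 6 ethanol dishes, and RNA of the cleared lysate, the supernatant from which the pull-down started (input), was sequenced from 3 of the control and 3 of the ethanol dishes. All groups carried the transgene, so no library without it serves as a pull-down control. The labels do not say whether the dishes came from separate cultures, so p-values measure the spread between dishes. The 18 libraries held 74239854 to 132810705 read pairs on genes each.

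Core histones H2A, H2B, H3 and H4 form the protein spool around which DNA is wound, and the linker histone H1 binds where DNA enters and leaves it. Most of these genes are transcribed in S phase, when new DNA has to be packed, and their mRNAs usually end in a conserved stem-loop instead of a poly(A) tail. Stem-loop binding protein (*Slbp*) binds that structure and is needed for cutting the pre-mRNA and for translation. Some of the same genes can also use a poly(A) site farther downstream, which is known for differentiated cells that no longer divide. The libraries were made from total RNA after removal of ribosomal RNA, a method that does not select for poly(A) tails.

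The stem-loop is characteristic of the family, which was taken by symbol here, so the forms found are shown. It was searched in the GRCm38 genome on the coding strand within 150 bases after every annotated stop codon, as 16 bases with 6 paired bases in each arm and a loop of 4. The search also required GG at the start, CC at the end, T and A as the pair next to the loop, and a T within the loop. Pairs of G with T were allowed. All forms found share the required bases because the search set them. A stem-loop was found in 65 of the 67 genes, at 22 to 59 bases after the stop codon with a median of 31, and in 25 other protein-coding genes, so that 0.414% of the 21762 searched had one. *Hist2h2be* and *Hist1h2an* had none in this window. Capitals mark the stem-loop and lower case the 5 bases on each side.
Hist1h1c: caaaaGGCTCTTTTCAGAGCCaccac
Hist1h2bc: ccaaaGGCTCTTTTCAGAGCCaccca
Hist1h3f: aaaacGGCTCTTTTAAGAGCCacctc
Hist1h3g: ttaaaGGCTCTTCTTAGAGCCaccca
Hist2h2ac: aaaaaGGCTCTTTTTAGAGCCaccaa
Hist1h4h: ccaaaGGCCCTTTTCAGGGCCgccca
Hist1h4i: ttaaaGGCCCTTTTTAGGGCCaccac
Hist1h4a: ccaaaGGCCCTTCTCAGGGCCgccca
Hist1h4j: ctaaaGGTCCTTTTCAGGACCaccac

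The capitals of *Hist1h1c* lie at chr13:23739512-23739527 and those of *Hist1h2bc* at chr13:23684647-23684662, both on the plus strand. Those of *Hist1h4h* lie at chr13:23531458-23531473 on the plus strand and those of *Hist1h4i* at chr13:22040966-22040981 on the minus strand. The form of *Hist1h1c* and *Hist1h2bc* was the commonest, in 41 genes of the H1, H2A, H2B and H3 types, and the form of *Hist1h3f* followed in 9. The form of *Hist1h4h* was found in 8 genes, all H4, and those of *Hist1h4i* and *Hist1h4j* in 2 each. The stem divided the types without exception among the 65 genes. All 13 H4 genes had a stem that began with GGCCC or GGTCC, and all 52 others had one that began with GGCTC.

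By type the family held 6 H1, 18 H2A, 18 H2B, 12 H3 and 13 H4 genes. By position it held 54 genes of the large cluster on chromosome 13, 10 of cluster 2 on chromosome 3, 2 of cluster 3 on chromosome 11, and the single gene *Hist4h4* on chromosome 6. A gene was tested if its read pairs from the 18 libraries added up to 10 or more, and 56 genes passed. Of the other 11, *Hist1h2ah*, *Hist2h2ab* and *Hist1h2ba* had 8, 6 and 3 pairs. The remaining 8, which were *Hist1h2aa*, *Hist1h2ao*, *Hist1h2ap*, *Hist2h2aa1*, *Hist2h2aa2*, *Hist2h2bb*, *Hist2h3b* and *Hist2h3c1*, were listed at 0. *Hist1h2aa* and *Hist1h2ba* are known as the testis-specific H2A and H2B genes.

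A pair of genes held most of the histone reads. The 67 genes took 1007077 read pairs, of which 55.5% came from *Hist1h1c*, a linker histone gene, and 29.1% from *Hist1h2bc*, an H2B gene. Levels are given as CPM, the counts of a gene per 1e+06 counts of its library after scaling by the trimmed mean of M-values (TMM). Averaged over the 18 libraries, *Hist1h1c* was at 359 CPM and *Hist1h2bc* at 188 CPM. The next were the H4 gene *Hist1h4h* at 21.3 CPM, the H2B gene *Hist1h2be* at 17.7 CPM, the H4 gene *Hist1h4i* at 14.0 CPM and the H2B gene *Hist2h2be* at 7.50 CPM. Only 16 of the 67 genes averaged 1 CPM or more, and the other 51 lay at or below 0.945 CPM.

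**Figure D1:**
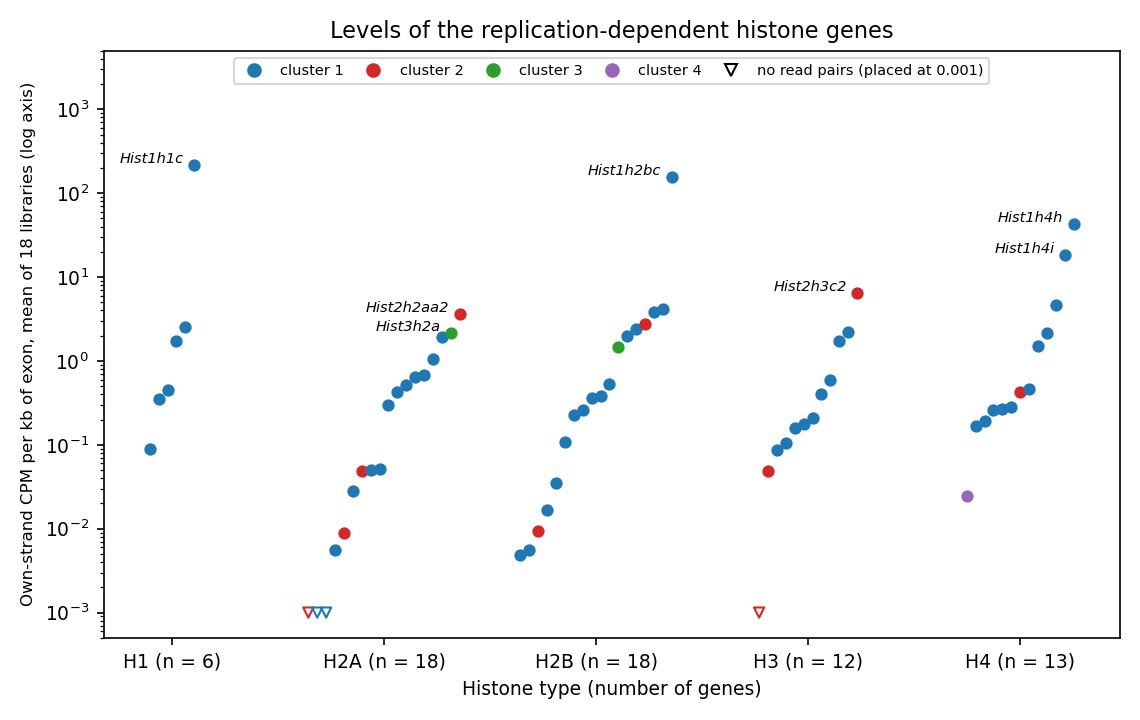
Each point is 1 of the 67 genes, placed by histone type on the x axis and by its mean level over the 18 libraries on the y axis, in CPM per kilobase of annotated exon counted on the gene's own strand (log axis); colours give the cluster and open triangles stand for genes without read pairs. *Hist1h1c* at 219 and *Hist1h2bc* at 155.8 CPM per kb stand above all others, and the H2A genes reach no more than 3.58.

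Genes were compared with each other per kilobase of annotated exon and on their own strand. *Hist1h1c* was at 219 CPM per kb, *Hist1h2bc* at 155.8, *Hist1h4h* at 43.3, *Hist1h4i* at 18.4 and *Hist2h3c2*, the H3 gene with the highest level, at 6.47. Only 38.4% of the 100-base stretches of *Hist2h3c2* occurred once in the genome, so its level is uncertain. The H4 gene *Hist1h4m* was at 4.64 and the H2B gene *Hist1h2bj* at 4.21. Long annotated 3′ ends lower such values, as in the H1 gene *Hist1h1d*, whose exon has 7425 bases and which was at 0.354 CPM per kb. An annotated end over 100 bases past the stem-loop was present for 27 of the 67 genes and for 10 of the 16 that averaged 1 CPM or more. The annotated exons of *Hist1h1c* ran 840 bases past the stem-loop and those of *Hist1h4i* 330 bases, both with a poly(A) signal near an annotated end. Those of *Hist1h4h* ended 46 bases past it. *Hist1h2bc* has a second annotated exon whose end lies 8246 bases beyond its stem-loop in the genome.

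Counting set limits that fell mostly on the H2A genes, which took 0.975% of the family's read pairs. The count table was made without regard to strand, and all 18 H2A genes overlap another annotated gene, in most cases a short entry on the opposite strand. Pairs that fit both were set aside. Counts of the annotated strand, deposited for each library, held 16441 pairs on H2A genes against 9820 in the table, a ratio of 1.67, whereas the ratio was 0.992 to 0.999 for the other types. The gap was large for *Hist1h2ab* (498 pairs in the table, 1469 on its own strand), *Hist1h2ac* (609 and 1676) and *Hist1h2ad* (368 and 966). *Hist2h2aa2*, listed at 0 in the table, had 3070 pairs on its own strand, or 1.97 ± 0.192 CPM in IP (SD, n = 12) and 1.75 ± 0.437 in input (SD, n = 6). It has a near-identical copy, *Hist2h2aa1*, so its level is uncertain. Sequence shared between copies limits other genes as well, since for 24 of the 67 under 50% of the 100-base stretches occurred once in the genome, and for 5 none did. These 5 were *Hist1h2ao*, *Hist1h2ap*, *Hist1h2bq*, *Hist1h2br* and *Hist2h2aa2*.

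Many H2A and H2B genes stand head to head and share the DNA between their starts. There were 12 such pairs with starts 176 to 306 bases apart, and the H2B gene had the higher own-strand level per kilobase in 10 of them. In the pairs where both genes had at least 10 own-strand pairs, this held for 6 of 8. The ratio reached 370 for *Hist1h2bc* over *Hist1h2ac*, 309 for *Hist2h2be* over *Hist2h2ac*, which had 8 own-strand pairs, and 150.2 for *Hist1h2bj* over *Hist1h2ag*. The H2A gene was higher in the pairs *Hist1h2ad* and *Hist1h2bf* (1.06 against 0.531 CPM per kb) and *Hist1h2ai* and *Hist1h2bl* (0.677 against 0.229). Only 11.6% of the 100-base stretches of *Hist1h2ai* and 37.9% of those of *Hist1h2bl* were unique.

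**Figure D2:**
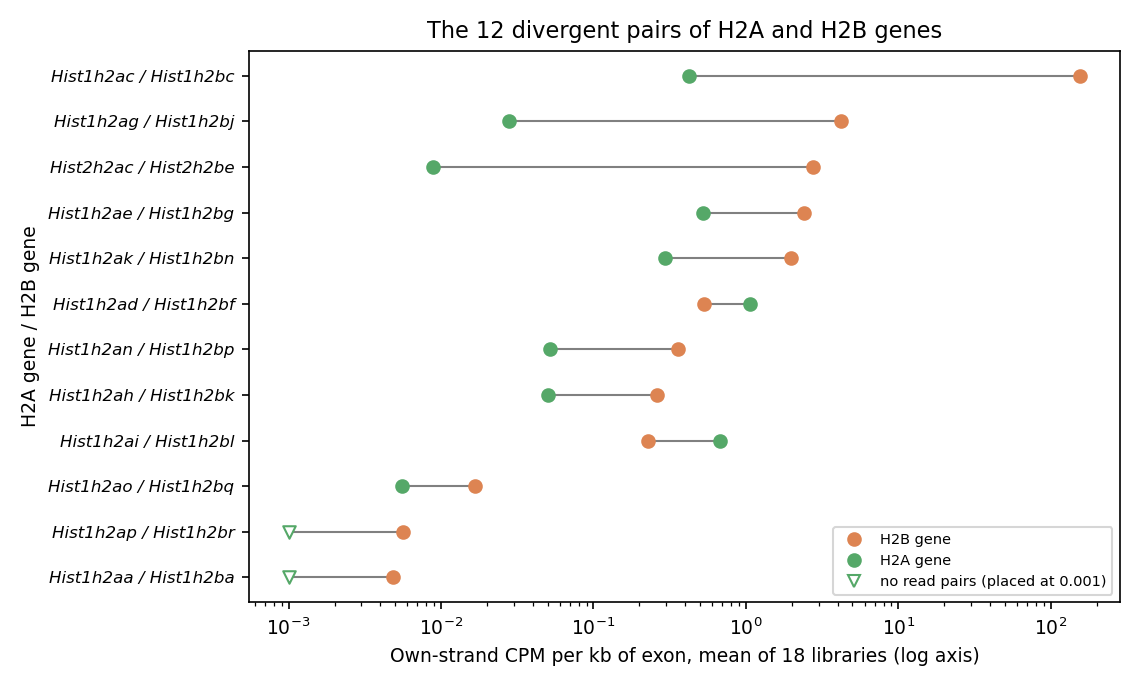
Each row is a head-to-head pair of an H2A and an H2B gene, and the x axis gives the mean level over the 18 libraries in CPM per kilobase of exon on the gene's own strand (log axis); open triangles stand for genes without read pairs. The H2B gene (orange) lies to the right of the H2A gene (green) in 10 of the 12 pairs, with the widest gap for *Hist1h2ac* and *Hist1h2bc*.

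The region shared by *Hist1h2ac* and *Hist1h2bc* is shown because the genes at its ends differed most in level. It is the RefSeq promoter window of *Hist1h2ac* (250 bases before to 50 after its start), chr13:23683910-23684209 of GRCm38.p6, read on the minus strand, the strand of *Hist1h2ac*. Capitals mark the CCAAT box, the TATAAA box and the octamer ATTTGCAT on either strand. The octamer is bound by Oct factors and is known from H2B promoters.
Hist1h2ac: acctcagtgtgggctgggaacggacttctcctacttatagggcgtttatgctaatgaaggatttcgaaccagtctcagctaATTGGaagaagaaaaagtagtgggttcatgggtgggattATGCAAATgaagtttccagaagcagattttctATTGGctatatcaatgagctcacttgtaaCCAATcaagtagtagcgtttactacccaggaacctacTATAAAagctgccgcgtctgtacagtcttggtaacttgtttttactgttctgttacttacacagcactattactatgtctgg

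Such windows were matched for 62 of the 67 genes, and both strands were searched. CCAAT was in 53 of the 62 (85.5%), against 37.4% of all 32851 RefSeq windows, and TATAAA in 35 (56.5%) against 13.6%. ATTTGCAT was in 13 (21.0%) against 1.74%, and these were 7 of 18 H2A and 6 of 16 H2B windows, with 0 among the H1, H3 and H4 windows. CCAAT was in every window of the H1, H2A, H2B and H3 types and in 3 of 12 H4 windows (25.0%). Windows of head-to-head genes overlap, so these counts are not independent.

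The first comparison asked which histone mRNAs were over- or underrepresented on the tagged ribosomes. *Hist1h1c*, *Hist1h2bc* and the H4 genes with the highest levels were higher in IP than in input, and both genes of cluster 3 were lower. With edgeR's quasi-likelihood test, a term for treatment, and Benjamini-Hochberg adjustment over 24495 genes at a threshold of 0.05, 17 of the 56 tested genes differed, 14 higher and 3 lower, against 51.0% of all genes tested (25.2% higher and 25.8% lower). The family as a whole was therefore not called higher more often than other genes. Among the 16 genes that averaged 1 CPM or more, 12 were called, 11 higher and 1 lower, against 76.3% of the 13453 genes at that level (42.5% higher and 33.8% lower). The share called in either direction was near the background there, but the direction was not. A larger share of the 16 was higher, and a smaller share lower, than among all genes at that level. The median log2 fold change of the 56 was 0.10 and that of all genes -0.028. By type, the calls were 3 of 6 H1, 1 of 11 H2A, 6 of 16 H2B, 2 of 10 H3 and 5 of 13 H4 genes. On counts of the annotated strand the H2A gene *Hist1h2ac* was called as well, higher by 0.33 (SE 0.109, adjusted p = 0.00806).

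*Hist1h1c* ranged from 375 to 407 CPM in IP, with a median of 383, and from 294 to 312 in input, with a median of 305. Its groups did not overlap, and the log2 difference was 0.34 (SE 0.0184, adjusted p = 3.87e-27). *Hist1h2bc* ranged from 189 to 208 CPM in IP (median 198) and from 163.7 to 172 in input (median 169). The log2 difference was 0.23 (SE 0.0196, adjusted p = 4.04e-17), again without overlap.

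Among the H4 genes, *Hist1h4h* ranged from 18.8 to 27.8 CPM in IP (median 23.3) and from 14.8 to 18.6 in input (median 17.1), with a log2 difference of 0.45 (SE 0.0407, adjusted p = 1.22e-12). *Hist1h4m* ranged from 1.66 to 2.98 CPM in IP (median 2.23) and from 1.04 to 1.47 in input (median 1.36), and its log2 difference of 0.77 (SE 0.0954, adjusted p = 9.18e-11) was the highest among genes at 1 CPM or more. Only 11.9% of the 100-base stretches of *Hist1h4m* were unique to it. *Hist1h4i* rose by 0.32 (SE 0.0400, adjusted p = 1.19e-10).

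The H2B gene *Hist1h2be* was higher in IP by 0.34 on the log2 scale (SE 0.0343, adjusted p = 6.65e-14), and the linker histone gene *Hist1h1b* by 0.45 (SE 0.101, adjusted p = 9.69e-05). *Hist1h1b* was at 1.25 to 1.82 CPM in IP (median 1.49) and 0.976 to 1.17 in input (median 1.06), without overlap. *Hist2h2be* gave 0.049 (SE 0.0486, adjusted p = 0.428). It ranged from 5.93 to 9.67 CPM in IP and from 5.71 to 8.40 in input, so the fractions overlapped over nearly their whole range.

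Cluster 3 went the other way. The H2A gene *Hist3h2a* was at 4.04 to 5.15 CPM in IP (median 4.56) and 4.87 to 5.92 in input (median 5.27), a log2 difference of -0.24 (SE 0.0546, adjusted p = 9.71e-05) with overlapping groups. Its H2B neighbour *Hist3h2ba* was at 0.439 to 1.08 CPM in IP (median 0.579) and 1.46 to 1.73 in input (median 1.60), a log2 difference of -1.38 (SE 0.122, adjusted p = 1.98e-16). The highest IP value of *Hist3h2ba* came from IP control 5, and the other 11 IP libraries were at or below 0.836. The ratio held in each treatment, at -1.45 in control and -1.30 in ethanol dishes (log2 of the ratio of mean CPM). The third gene that was lower, the H4 gene *Hist2h4*, gave -0.64 (SE 0.136, adjusted p = 3.27e-05).

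Groups that did not overlap were seen for 7 genes in all, each among the 17, against 25.0% of all genes (13.1% higher and 11.9% lower). Both treatments were pooled in each fraction here, so fractions apart within each treatment could still overlap. Markers of other cells differed between the fractions as well. Of 10 microglia markers 9 were lower in IP, with a summed level of 14.2 to 18.1 CPM in IP and 80.8 to 97.9 in input. Of 6 fibroblast and meningeal markers 5 were lower and 1 was higher, at 190 to 218 CPM in IP and 350 to 359 in input. Of 10 astrocyte markers 9 were higher and 1, *S100b*, was lower, with a summed level of 2383 to 2562 CPM against 1515 to 1595. Among oligodendrocyte lineage markers 4 were higher and 4 lower of 10, among neuron markers 4 higher and 1 lower of 8, and among endothelial and mural markers 2 higher and 3 lower of 7 tested. Their part in the histone differences was not tested.

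**Figure D3:**
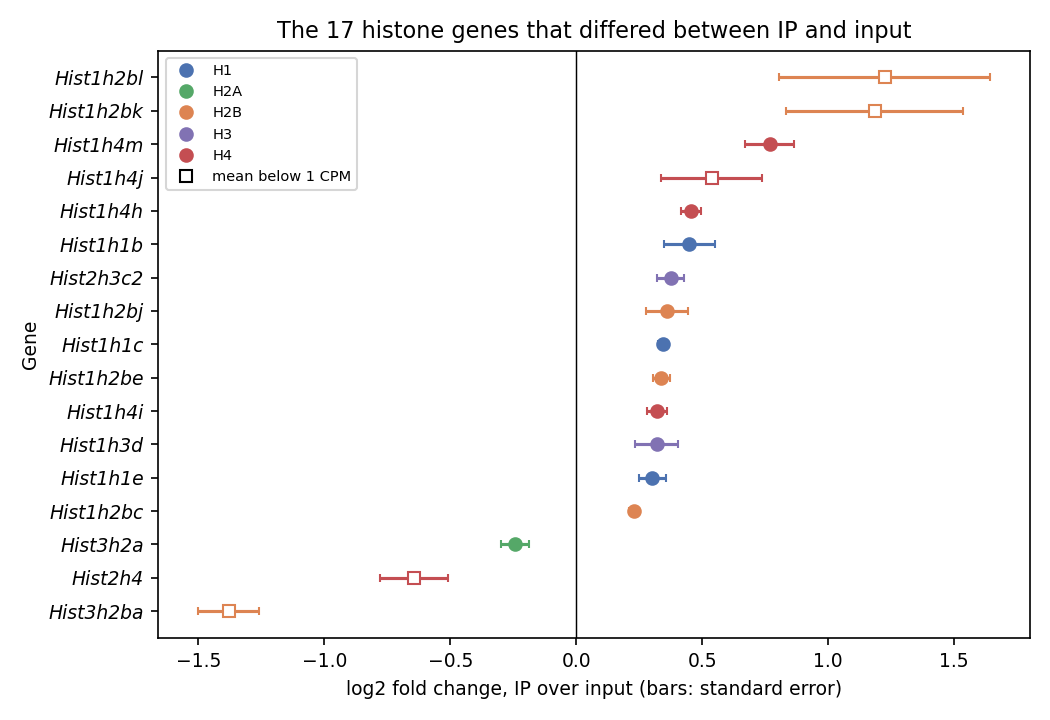
The x axis gives the log2 fold change of IP over input and the y axis lists the 17 genes with an adjusted p below 0.05; bars are standard errors, colours give the histone type, and open squares are genes with a mean below 1 CPM. *Hist3h2a*, *Hist2h4* and *Hist3h2ba* lie left of 0 and the other 14 lie right of it, from 0.23 to 1.22.

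The next comparison asked which histone mRNAs changed on ribosomes after 24 h of 50 mM ethanol. Some genes of each histone type fell, whereas the pair that supplies most of the reads did not pass the test. In IP, 11 of the 56 tested genes fell and 0 rose, against 21.4% of all genes called (9.48% lower and 11.9% higher). The share called in either direction was near that of all genes, but every call was lower. By type, the calls were 2 of 6 H1, 1 of 11 H2A, 2 of 16 H2B, 2 of 10 H3 and 4 of 13 H4 genes. The genes that fell were *Hist1h1d* and *Hist1h1e* (H1), *Hist1h2ac* (H2A), *Hist1h2be* and *Hist2h2be* (H2B), *Hist1h3d* and *Hist1h3i* (H3), and *Hist1h4a*, *Hist1h4h*, *Hist1h4i* and *Hist1h4j* (H4). The median log2 fold change of the 56 was -0.32 and that of all genes 0.0054. In bulk libraries, fewer cells that express a gene and less RNA of it per cell cannot be told apart.

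*Hist1h1c* ranged from 375 to 390 CPM in IP control (median 381) and from 379 to 407 in IP ethanol (median 386), a log2 difference of 0.033 (SE 0.0227, adjusted p = 0.356). *Hist1h2bc* ranged from 191 to 203 CPM in control (median 199.6) and from 189 to 208 in ethanol (median 197), a log2 difference of -0.0018 (SE 0.0243, adjusted p = 0.975). Both overlapped between the treatments. With trends over GC content and length removed, both were called higher, at 0.061 (adjusted p = 0.0104) for *Hist1h1c* and 0.071 (adjusted p = 0.00495) for *Hist1h2bc*, so that the calls became 11 lower and 2 higher.

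Of the genes that fell, the H4 gene *Hist1h4i* had the lowest p-value. *Hist1h4i* went from 16.1 to 18.5 CPM in control (median 17.6) to 11.2 to 13.7 in ethanol (median 12.6), a log2 difference of -0.45 (SE 0.0447, adjusted p = 4.72e-12). *Hist1h4h* went from 23.5 to 27.8 CPM (median 25.7) to 18.8 to 23.2 (median 21.6), a log2 difference of -0.28 (SE 0.0458, adjusted p = 1.95e-05). For both, every ethanol library was below every control library. *Hist1h4a*, at 0.837 CPM over the IP libraries, fell by 0.63 (SE 0.150, adjusted p = 0.000965) with overlapping groups.

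Of the H2B genes, *Hist2h2be* went from 7.82 to 9.67 CPM in control (median 8.94) to 5.93 to 7.01 in ethanol (median 6.24), a log2 difference of -0.46 (SE 0.0555, adjusted p = 1.42e-09). *Hist1h2be* went from 19.3 to 21.8 CPM (median 21.0) to 15.9 to 18.7 (median 17.3), a log2 difference of -0.27 (SE 0.0396, adjusted p = 2.19e-07). Neither overlapped between the treatments. Parts of *Hist1h2be* and *Hist1h1e* overlap on the same strand, and pairs from that stretch, 25.7% of the annotated exon of *Hist1h1e*, could not be assigned to either.

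Of the linker histone genes, *Hist1h1d* went from 3.01 to 3.49 CPM in control (median 3.21) to 2.03 to 2.75 in ethanol (median 2.48), a log2 difference of -0.38 (SE 0.0806, adjusted p = 0.000206) without overlap. *Hist1h1e* fell by 0.27 (SE 0.0607, adjusted p = 0.000384). The H3 gene *Hist1h3i* had the largest change, -1.01 (SE 0.273, adjusted p = 0.00396), at a low level of 0.229 to 0.419 CPM in control and 0.0745 to 0.215 in ethanol. The groups of 6 of the 11 genes that fell did not overlap. Over the family 8 genes had such groups, all lower with ethanol, against 9.96% of all genes (5.09% higher and 4.87% lower).

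**Figure D4:**
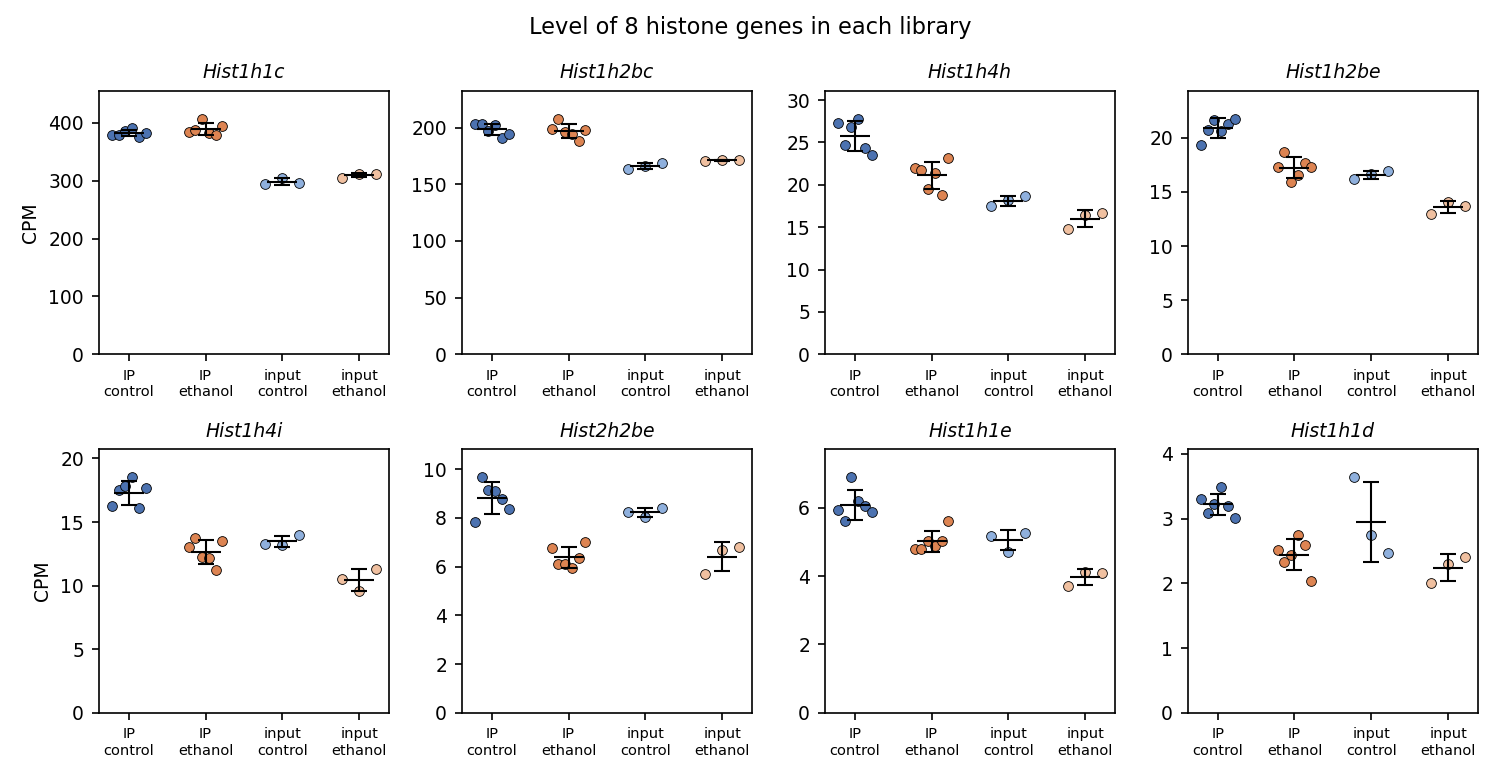
Each panel shows 1 gene with CPM on the y axis (from 0) and the 4 groups on the x axis; points are single libraries (6 per IP group, 3 per input group) and bars are the mean ± SD. *Hist1h1c* and *Hist1h2bc* lie at the same height with and without ethanol in IP, while the 6 other genes are lower with ethanol in both fractions.

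The test was repeated on counts of the annotated strand because of the H2A genes. In IP it called 13 genes, all lower, which included the 11 and added *Hist1h2af* and *Hist3h2a*. *Hist1h2af* went from 0.227 to 0.490 CPM in control (median 0.420) to 0.0394 to 0.302 in ethanol (median 0.145), a log2 difference of -1.33 (SE 0.279, adjusted p = 0.000226). *Hist1h2ac* went from 1.19 to 1.45 CPM to 0.828 to 1.04, a log2 difference of -0.55 (SE 0.117, adjusted p = 0.000284), where its groups did not overlap. In the table without strand it gave -0.70 (SE 0.211, adjusted p = 0.0109). *Hist2h2aa2* gave 0.0044 (SE 0.0946, adjusted p = 0.983). In input the same counts called 7 genes, the 6 given next and *Hist1h2af*, which fell by 1.41 (SE 0.450, adjusted p = 0.0142).

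In input, 6 of the 56 genes fell and 0 rose, against 15.0% of all genes called (7.78% lower and 7.21% higher). The share called in either direction was below that of all genes, and every call was lower. The 6 were *Hist1h1d*, *Hist1h1e*, *Hist1h2be*, *Hist2h2be*, *Hist1h4h* and *Hist1h4i*, and all 6 were among the 11 that fell in IP. Each averaged 1 CPM or more, and in each the 3 ethanol libraries lay below the 3 control libraries. Over the family, 16 of the 56 tested genes had groups that did not overlap, some lower and some higher with ethanol. Of all genes 27.1% had such groups (13.1% lower and 14.0% higher), so the family's share was near that of all genes. The median log2 fold change of the 56 was -0.20 and that of all genes -0.00092.

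*Hist1h4i* was at 13.2, 13.3 and 14.0 CPM in the 3 input control libraries and at 9.55, 10.5 and 11.3 in the 3 with ethanol, a log2 difference of -0.37 (SE 0.0621, adjusted p = 9.37e-08). *Hist2h2be* was at 8.04, 8.24 and 8.40 CPM in control and 5.71, 6.68 and 6.82 in ethanol, a log2 difference of -0.37 (SE 0.0788, adjusted p = 7.60e-05). *Hist1h2be* was at 16.2, 16.6 and 16.9 CPM in control and 13.0, 13.7 and 14.1 in ethanol, a log2 difference of -0.29 (SE 0.0560, adjusted p = 6.39e-06). All 3 genes kept the same order of groups in both fractions.

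*Hist1h4h* was at 17.4, 18.2 and 18.6 CPM in control and 14.8, 16.4 and 16.7 in ethanol, a log2 difference of -0.18 (SE 0.0530, adjusted p = 0.00566). Its adjusted p was 0.140 without input ethanol replicate 4 and 0.0520 without input control replicate 6. *Hist1h1d* was at 2.47, 2.74 and 3.64 CPM in control and 2.01, 2.30 and 2.41 in ethanol, a log2 difference of -0.40 (SE 0.126, adjusted p = 0.0135). Without input control replicate 4, the library at 3.64, the log2 difference was -0.22 and the adjusted p was 0.390, and without input ethanol replicate 4 they were -0.32 and 0.110.

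*Hist1h1c* was at 294, 297 and 305.1 CPM in input control and 305.3, 311.9 and 311.9 in input ethanol, a log2 difference of 0.049 (SE 0.0228, adjusted p = 0.151). *Hist1h2bc* was at 163.7, 166.3 and 169 CPM in control and 170, 171 and 172 in ethanol, a log2 difference of 0.036 (SE 0.0234, adjusted p = 0.360). The ethanol libraries were the higher ones for both genes without overlap, and neither passed the test. With trends over GC content and length removed both did, at 0.077 (adjusted p = 0.00382) and 0.063 (adjusted p = 0.0321).

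**Figure D5:**
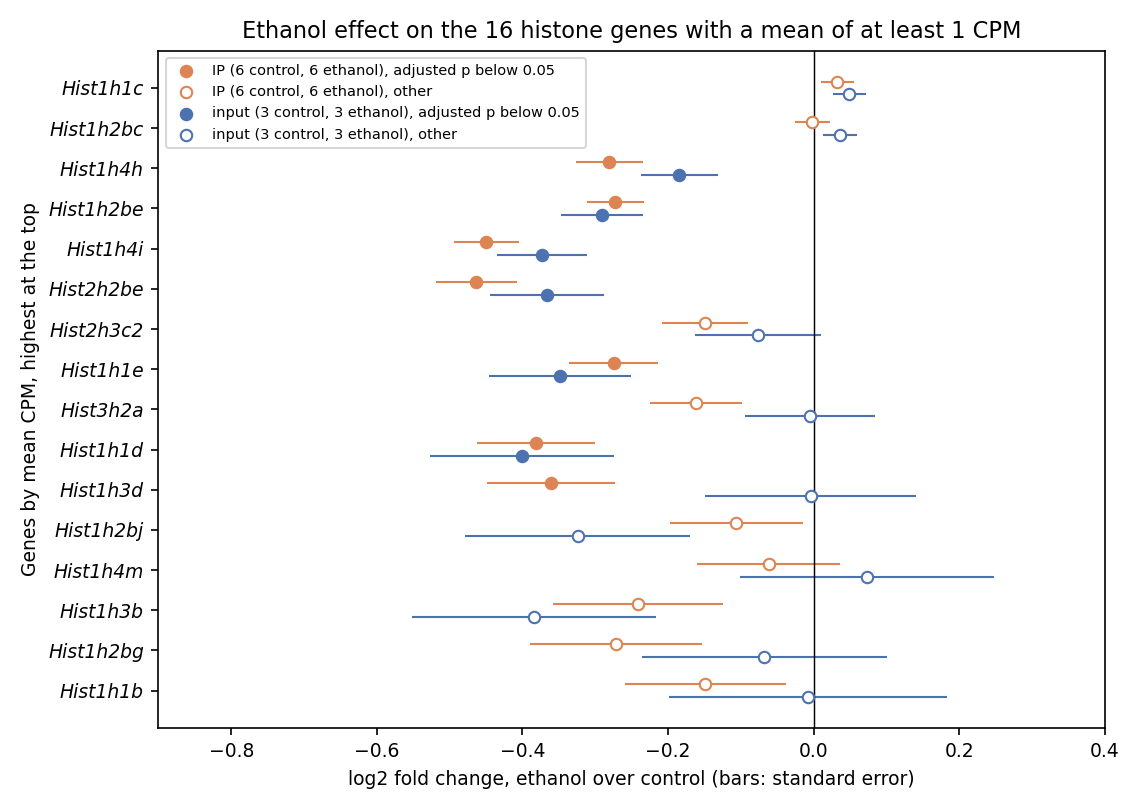
The x axis gives the log2 fold change of ethanol over control with its standard error and the y axis lists the 16 genes that averaged 1 CPM or more, highest at the top; orange is IP, blue is input, and filled points have an adjusted p below 0.05. *Hist1h1c* and *Hist1h2bc* lie within 0.049 of 0, and the filled points lie between -0.46 and -0.18.

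The difference of the ethanol effect between the fractions was tested directly. In the fit over all 18 libraries no gene of the family passed (0 of 56), and edgeR called 0.0% of all genes. At an unadjusted p under 0.05 there were 3 genes of the family and 1459 of all genes, and DESeq2 called 0 and 2. The 3 were *Hist4h4*, *Hist1h3d* and *Hist1h4a*. *Hist1h3d* fell by 0.36 in IP (SE 0.0877, adjusted p = 0.00126) and was at -0.00378 in input (SE 0.145), a difference of -0.37 (SE 0.162, adjusted p = 0.813). For *Hist1h4h*, *Hist1h4i* and *Hist2h2be* the differences were -0.11 (SE 0.0792), -0.088 (SE 0.0794) and -0.11 (SE 0.0967), and for *Hist1h2be* 0.0073 (SE 0.0684), with adjusted p of 0.895, 0.912, 0.912 and 0.9995. Those of *Hist1h1c* and *Hist1h2bc* were -0.027 (SE 0.0361, adjusted p = 0.946) and -0.049 (SE 0.0384, adjusted p = 0.897). In the dishes with both fractions, edgeR called 13 of all genes without a block and 102 with the dish as a block. Of the family 0 genes passed in either fit. The 5 genes called in IP and not in input are thus not shown to differ between the fractions.

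The sum over the family was mostly the pair with the highest levels. The 67 genes summed to 698 ± 11.6 CPM in IP control and 681 ± 14.4 in IP ethanol (SD, n = 6), and to 560 ± 5.78 in input control and 562 ± 7.05 in input ethanol (SD, n = 3), which overlapped between treatments in each fraction. Without *Hist1h1c* and *Hist1h2bc*, the other 65 genes summed to 117 ± 3.43 CPM in IP control and 94.5 ± 2.91 in IP ethanol, a difference of -19.2%. In input they summed to 95.6 ± 1.27 and 81.8 ± 2.56 CPM, a difference of -14.4%. These groups did not overlap in either fraction. The sums were described and not tested.

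Each type showed the lower sum in IP once the pair was set apart, a choice made after the data were seen. With the pair included, the H1 sum differed by 1.20% in IP and 3.03% in input. The H2B sum then differed by -3.38% in IP and -0.328% in input, and the groups of both types overlapped in both fractions. The sums without the pair rest mostly on a few genes described above. In IP control, *Hist1h4h* and *Hist1h4i* averaged 25.7 and 17.3 CPM of the 49.2 CPM of H4. *Hist3h2a* averaged 4.81 CPM of the 6.58 CPM of H2A there. The difference of the mean summed CPM was -18.8% for the 5 other H1 genes, -15.8% for H2A, -18.5% for the 17 other H2B genes, -16.1% for H3 and -21.0% for H4. The groups overlapped for H3 only. In input the differences were -19.6%, -4.62%, -16.9%, -9.57% and -14.2%, and the groups overlapped for H2A and H3. On counts of the annotated strand the H2A difference was -15.6% in IP and -8.49% in input, where the groups still overlapped. By cluster, the 10 genes of cluster 2 went from 17.3 to 14.0 mean summed CPM in IP (-19.1%) and from 15.2 to 12.9 in input (-14.9%). Cluster 3 differed by -9.33% in IP without overlap and by -1.13% in input with overlap. Cluster 1, which holds *Hist1h1c* and *Hist1h2bc*, differed by -1.91% in IP and 0.819% in input, with overlap in both. *Hist4h4*, the only gene of cluster 4 and with 112 pairs in all, averaged 0.105 and 0.0570 CPM in IP and 0.0292 and 0.0915 CPM in input (control and ethanol), and the groups overlapped.

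Genes that act on histone mRNAs and histone proteins were taken from lists based on general knowledge, chosen with earlier results of these data known. In the list for transcription of histone genes, 3 of 7 fell and 1 rose in IP, with *Ccne1*, the cyclin E1 gene, at -0.26 (SE 0.0593, adjusted p = 0.000584), *Cdk2*, its kinase partner, at -0.17 (SE 0.0439, adjusted p = 0.00243), and *Hinfp*, a factor for H4 genes, at 0.18 (SE 0.0418, adjusted p = 0.00079). Of 10 genes for processing of the 3′ end, 2 fell and 1 rose in IP. *Srrt*, whose product acts with the cap-binding complex, fell by 0.30 (SE 0.0256, adjusted p = 2.82e-14), *Cstf2* fell by 0.091 (SE 0.0295, adjusted p = 0.0177), and *Sympk*, the scaffold of the cutting complex, rose by 0.14 (SE 0.0239, adjusted p = 5.04e-06). *Slbp* was at 25.1 CPM in IP control and 24.9 in IP ethanol on average and was not called. Of 4 genes for decay of histone mRNA 1 rose, *Zcchc11*, at 0.11 (SE 0.0402, adjusted p = 0.0367). The median log2 fold changes of these lists in IP were -0.038, -0.038 and -0.00279.

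Most histone chaperone and import genes fell as well. In IP 9 of 11 fell and 0 rose, with a median of -0.12, and in input 7 of 11 fell and 0 rose. *Asf1b*, a chaperone of H3 and H4, fell by 0.37 in IP (SE 0.0668, adjusted p = 1.59e-05), *Nasp*, which holds a soluble reserve of histones, by 0.21 (SE 0.0377, adjusted p = 2.03e-05), and *Chaf1b*, a subunit of chromatin assembly factor 1, by 0.28 (SE 0.0565, adjusted p = 8.61e-05). For S phase genes 25 of 30 fell in IP and 23 in input, with 0 that rose. Their summed level went from 511 to 534 CPM in IP control to 440 to 459 in IP ethanol. For genes of G2 and mitosis 22 of 22 fell in IP and 21 in input, and their sum went from 182 to 198 CPM to 147.7 to 159. In IP, of the cell type markers, 4 astrocyte markers rose and 1 fell of 10, and of the microglia, oligodendrocyte, neuron, endothelial and fibroblast markers 2 rose and 3 fell in all. The part of these lists in the histone changes was not tested.

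Replacement histones can be made outside S phase, mostly from mRNAs with poly(A) tails, although *H2afx* of this list was among the other genes with a stem-loop. In IP 4 of 11 fell and 2 rose, and in input 3 fell and 1 rose. The linker histone gene *H1f0*, known for cells that stop dividing, rose by 0.18 in IP (SE 0.0258, adjusted p = 1.29e-07) and by 0.19 in input (SE 0.0240, adjusted p = 2.09e-13). *H1fx*, another linker histone gene, rose by 0.26 in IP (SE 0.0594, adjusted p = 0.00248). *H3f3a*, which encodes the H3 variant laid down outside replication, fell by 0.10 in IP (SE 0.0262, adjusted p = 0.00219) and by 0.12 in input (SE 0.0253, adjusted p = 2.84e-05). Their summed level was 888 ± 11.2 CPM in IP control and 872 ± 22.6 in IP ethanol (SD, n = 6), and the groups overlapped.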

How the data were processed

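Per the labels and the study's methods, the authors made stranded total RNA libraries after ribosomal RNA removal, trimmed the reads with Trimmomatic and aligned them with STAR to GRCm38 with Ensembl annotation; versions are not given in the sources used here. The deposited values are raw counts of read pairs per gene, without regard to strand in the series table and also by strand for each library. The table equalled the single files (0 differences). Pairs that mapped to several places made up 2.95% to 3.19% in IP libraries and 4.56% to 4.77% in input libraries. Over all libraries, 5.37% to 5.66% fitted several genes, and neither kind was counted. The part of the gap in multiple mapping in the differences between IP and input was not tested. Genes whose pairs summed to at least 10 in the 18 libraries entered edgeR 4.0.16 (R 4.3.3; TMM, quasi-likelihood test, Benjamini-Hochberg adjustment over 24495 genes, threshold 0.05), after tests on simulated data; ethanol was fitted within each fraction, and fractions over all libraries. DESeq2 1.42.0 and other settings were alternatives. The members and gene lists were chosen with earlier results of these data known. Genes given with full values were the 6 with the highest mean CPM in each comparison and the up to 3 largest called increases and decreases at 1 CPM or more. Others were named for group, level or sequence. Outside that rule, *Hist3h2ba*, *Hist1h3i*, *Hist1h4a*, *Hist1h3d*, *Hist1h2ac*, *Hist1h2af*, *Hist1h1e*, *Hist2h4* and *Hist2h2aa2* were given values after these were seen. The sums without *Hist1h1c* and *Hist1h2bc*, the ratios within each treatment, the share of all genes called at 1 CPM or more and the sums on the annotated strand were also chosen after seeing the data. Input and IP came from the same dishes, per the study's methods (correlation of their deviations 0.0191 to 0.153 over 6 dishes). Positions and lengths are from GENCODE M21, with 65 genes matched by identifier and 2 by symbol.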

Additional observations from a re-analysis of the deposited data

Results flagged for a closer look

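Among 48 groups of 6 IP libraries checked for a library far from the others (Dixon's criterion, gap over range above 0.625), 4 were found, and chance gives about 1 in 20. The summed level of the H2B genes other than *Hist1h2bc* was 33.3 CPM in IP control replicate 1, against 36.4 to 37.4 in the other 5. The sum of the H3 genes was 11.3 CPM in IP control replicate 5, against 13.5 to 14.2, and 12.4 CPM in IP ethanol replicate 3, against 10.7 to 11.3. The sum of cluster 4, which is *Hist4h4* alone, was 0.186 CPM in IP control replicate 4, against 0.0656 to 0.109.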

How the results depend on the processing

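The counts of called genes stayed within 1.5 times of those reported under every alternative run: 17 to 18 for IP vs. input, 8 to 14 for ethanol in IP, 5 to 7 for ethanol in input and 0 for the difference between fractions. With 1 library left out they ran from 16 to 20, 10 to 13, 5 to 7 and 0 to 0. *Hist1h4j* lost its call for ethanol in IP when IP control replicate 4, 5 or 6 or IP ethanol replicate 2, 4, 5 or 6 was left out (adjusted p 0.0641 to 0.172) and with GC and length trends removed (0.0938), and for IP vs. input without input control replicate 5 (0.0580) or 6 (0.0821). In input, *Hist1h1d* was not called by DESeq2 (0.0634) nor *Hist1h4h* with the trends removed (0.0774). With IP limited to the dishes with input, 8 genes were called, 7 of them among the 11, without *Hist1h2ac*, *Hist1h3d*, *Hist1h3i* and *Hist1h4a* (adjusted p 0.0917 to 0.480). With the dish as a block for pairing, IP vs. input gave 17 genes, the same 17, and the difference between fractions 0. With the replicate number as a block, ethanol gave 12 genes in IP and 6 in input; that number is shared by name only (correlations -0.104 to 0.221). Of 644 alternative values for single genes, 626 kept direction and side of the threshold, and 9 changed sign, none from a value that was called. These were *Hist2h2be* for IP vs. input on total counts (-0.00125), *Hist1h2bc* for ethanol in IP without 1 library (-0.0236 to 0.00964) and with GC and length trends removed (0.0709), and the difference for *Hist1h2be* without 1 library (-0.0330 to 0.0312) and in the dishes with both fractions without a block (-0.000638). Summed CPM without 1 library ran from 694 to 701 in IP control, 678 to 685 in IP ethanol, 558 to 563 in input control and 560.1 to 567 in input ethanol; on the annotated strand it was 671, 655, 540 and 541, and on total counts 573 and 577 in the input groups. Depth limits the 51 genes below 1 CPM, and copies limit H2A genes most. The cause of these shifts was not tested.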
